A study of Mus musculus with 6 samples.

Results

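The 10 genes described here carry the hepatocyte growth factor (HGF) and fibroblast growth factor (FGF) signals of muscle stem cell activation: the ligands Hgf, Fgf2 and Fgf7, the receptors Met, Fgfr1 and Fgfr4, and the feedback inhibitors Spry1, Spry2, Spry4 and Dusp6. They were chosen by gene name from the 54532 genes of a bulk RNA-seq count table, and all 10 were among the 14679 genes with enough reads to be tested. The cells were primary mouse myoblasts, obtained by digesting hind-limb muscles with dispase and collagenase and collected at day 2 of culture. The series' description calls the mice adult and gives their age as 3 weeks, an age at which mice are not yet adult. There were 3 libraries labelled WT and 3 labelled eIF5A knockout (eIF5A-KO). Per the labels, every culture, WT included, was grown in medium with 10% fetal bovine serum and with FGF, at a labelled dose of 10 µg/ml that could not be checked here, so that no library shows the genes without added FGF. In the study's methods the knockout is inducible and driven by Cre from the Pax7 locus (Pax7 CreERT2/+;eIF5A f/f), with tamoxifen given to induce it, so that eIF5A is deleted only in cells that have expressed Pax7 and in their progeny. The controls were WT littermates, which the study gives in one place as carrying the Cre allele alone and in another as carrying the floxed alleles alone. The labels do not describe a sort of the digested cells. In the study's methods such a digestion is followed by a fluorescent sort of cells from reporter mice. Whether these cultures were sorted is not stated there. Nothing in the labels says whether the 3 libraries of a genotype came from separate animals. The p-values therefore measure the spread between these libraries, which may be technical. The comparison asks how the mRNA levels of the pathway's genes differed between the libraries labelled eIF5A-KO and WT.

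HGF is held in the matrix around muscle fibres and released upon injury. It binds MET, a receptor tyrosine kinase on muscle stem cells, and is known for bringing quiescent cells into the cell cycle. FGF2 and related ligands act with heparan sulphate coreceptors through FGFR1 and FGFR4, the main FGF receptors of muscle stem cells. Both receptor families feed into RAS, ERK and p38 signalling. ERK in turn induces its own inhibitors, among them the Sprouty proteins, which act near the receptor and RAS, and DUSP6, a phosphatase that removes phosphate from ERK in the cytoplasm.

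Eif5a, the targeted gene, was read first. Its level was 1603, 986 and 1238 CPM in WT replicates 1 to 3 and 1364, 1459 and 1059 CPM in the libraries labelled eIF5A-KO. The groups overlapped, and the log2 fold change, here always eIF5A-KO over WT, was 0.02 with a 95% confidence interval of -0.51 to 0.55 (adjusted p = 0.993, edgeR). The counts cover the whole gene. Reads on exons outside the floxed part, which is not given in the sources used here, would be counted too. So would reads of cells that never expressed Pax7, in which eIF5A is not deleted. The part of either was not tested. The study itself measured eIF5A mRNA by RT-qPCR in freshly isolated muscle stem cells and reports the knockout as successful. In the libraries used here the level of Eif5a did not mark the knockout, and the libraries are named by their labels throughout. CPM, the usual count unit relative to library size, were computed from the deposited read counts with the TMM factors of edgeR, which correct for differences in library composition, and they are used to compare libraries within a gene. Adjusted p-values are Benjamini-Hochberg values over all 14679 tested genes from edgeR's quasi-likelihood test.

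The libraries were alike in depth, with 16281216 to 17734551 counted reads. Markers of the labelled cell type were present, and none of the 7 myogenic markers was at 0 in any library, but the cultures also held other cells. The FPKM (the authors' unit of fragments per kilobase of a gene, corrected for library size) of the 7 myogenic markers summed to 218 to 496 in WT and 192 to 362 in the libraries labelled eIF5A-KO. The sum of 7 fibroblast markers was 775 to 1084 in WT and 803 to 956 in eIF5A-KO, and that of 6 endothelial markers was 158 to 352 and 286 to 452. The sum of 6 mural markers was 62.3 to 90.6 in WT and 113 to 122 in eIF5A-KO, and that of 4 Schwann markers 28.7 to 47.2 and 48.9 to 61.7, without overlap between the groups in either list. That of 6 macrophage and leukocyte markers was 36.7 to 84.5 and 38.6 to 106. No marker on any of these lists was at 0 in all libraries. The largest part of the mural sum was Pdgfrb, at 29.2, 44.6 and 39.5 FPKM in WT and 75.4, 66.7 and 57.8 FPKM in eIF5A-KO. Kcnj8 and Myh11 of that list also did not overlap between the groups, while Rgs5, Abcc9 and Notch3 did. WT replicate 1 stood apart, with the lowest endothelial sum, the highest fibroblast sum and the lowest myogenic sum of the WT libraries. The fibroblast sum rests mostly on Ly6a and Dcn, and Col1a1 and Col3a1 of the same list were lowest in WT replicate 1. WT replicate 1 was also the highest or lowest of the 6 libraries for 8 of the 10 genes described here. Results of these genes that rest on it are given with and without it. Tallies of direction in the pathway lists are given with all libraries only. In bulk RNA, fewer cells of a type and less RNA per cell cannot be told apart.

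Sequence around the starts of 3 of the genes is shown first, since promoters are where transcription factors downstream of ERK bind: of the receptors Met and Fgfr4, which had the largest differences between the genotypes, and of Spry2, whose groups, as those of Met, did not overlap. They are RefSeq sequences of the build GRCm38.p6, read 5′ to 3′ on the strand of the gene. Those named upstream end before the first annotated exon, and capitals mark a match to the AP-1 motif.
Met upstream, chr6:17463707-17463799, + strand: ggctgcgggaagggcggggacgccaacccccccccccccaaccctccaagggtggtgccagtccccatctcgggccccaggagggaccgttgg
Met AP-1 match, chr6:17463892-17463921, + strand, inside annotated first exons: tgttgcccggcTGAGTCAcgggccgggcag
Fgfr4 upstream, chr13:55152568-55152639, + strand: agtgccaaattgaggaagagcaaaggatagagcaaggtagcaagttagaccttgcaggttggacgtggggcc
Spry2 upstream, chr14:105896820-105897069, - strand: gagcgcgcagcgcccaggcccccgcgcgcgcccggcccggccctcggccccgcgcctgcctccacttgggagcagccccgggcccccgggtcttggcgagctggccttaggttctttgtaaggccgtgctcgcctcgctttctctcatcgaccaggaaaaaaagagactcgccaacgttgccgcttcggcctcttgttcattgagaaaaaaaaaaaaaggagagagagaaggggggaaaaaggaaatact

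Promoter windows, 250 bases before to 50 after the start site, were matched for 8 of the 10 genes. The AP-1 motif TGACTCA, searched on both strands, lay in the window of Met alone among the 8, at 48 to 54 bases before the RefSeq start site, and 5.20% of all 32851 promoter windows held it. None of the 8 held the ETS motif CCGGAAG or the E-box CAGCTG in its window, which 8.86% and 16.3% of all windows held. G and C made up 75.7% of the window of Met, 65.3% of Fgfr4, 64.3% of Spry1, 62.7% of Spry2 and of Fgf2, 57.3% of Dusp6, 51.3% of Hgf and 45.7% of Fgf7, against a median of 52.7% over all windows. These matches describe the letters of the windows and not sites of binding.

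Of the 10 genes, Met, the receptor of HGF, differed most clearly between the genotypes: in the libraries labelled eIF5A-KO it was 2.19-fold lower (n = 3 per genotype) and below every WT library, and did not pass the threshold after adjustment. Spry2 was also below every WT library, by a small step. Fgfr4 and the ligands varied more among the WT libraries than between the genotypes, and Fgfr1, Spry1, Spry4 and Dusp6 overlapped between them.

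At an adjusted p under 0.05 in edgeR, 0 of the 10 genes were called, and 3 of the 14679 tested genes were (0.0204%). By DESeq2 it was 1 of the 10, Met, and 88 of 14677 genes with an adjusted p (0.6%). At an unadjusted p under 0.05 the count was 1 of the 10, Met, which was lower, against 6.76% of all tested genes in either direction and 4.02% lower. Met was also the only one past the study's own criterion of a fold over 2 with an unadjusted p under 0.05, which 1.85% of all tested genes passed in either direction and 1.32% as lower genes. Of the 10, 2 were free of overlap between the groups, Met and Spry2, both lower, against 12.5% of all tested genes in either direction and 6.83% lower. The 10 log2 fold changes were positive for 6 genes and negative for 4, with a median of 0.20, and the median of all tested genes was -0.011. With 10 genes these shares lie near the background, and nothing is read from them about the genes as a list.

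**Figure D1:**
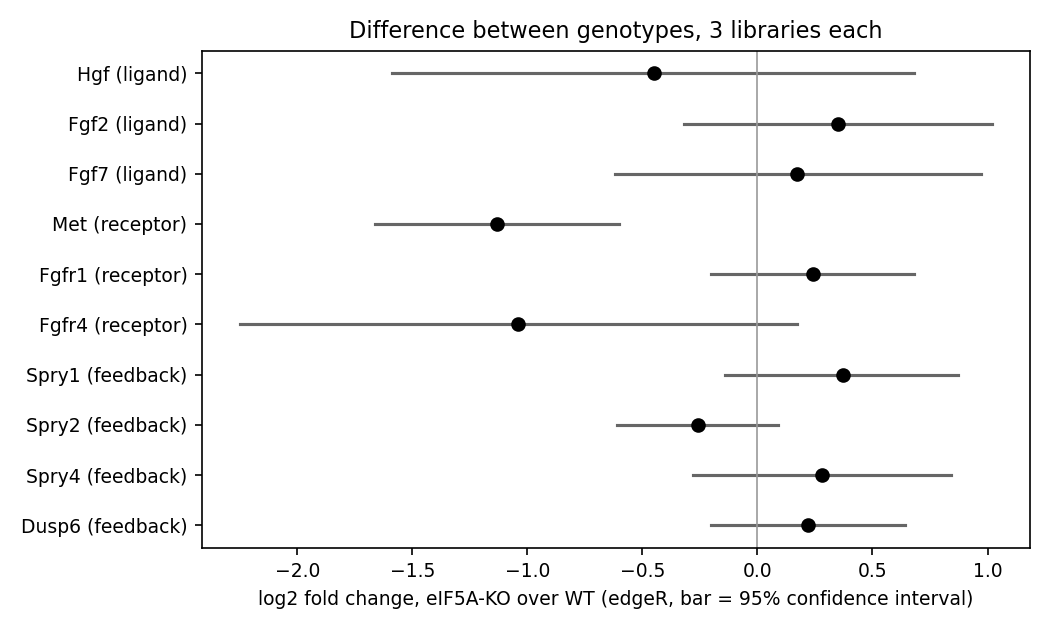
Log2 fold change of each gene, eIF5A-KO over WT, from edgeR (points) with its 95% confidence interval (bars), from 3 libraries per genotype. The interval of Met, -1.66 to -0.60, is the only one that does not cross 0.

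**Figure D2:**
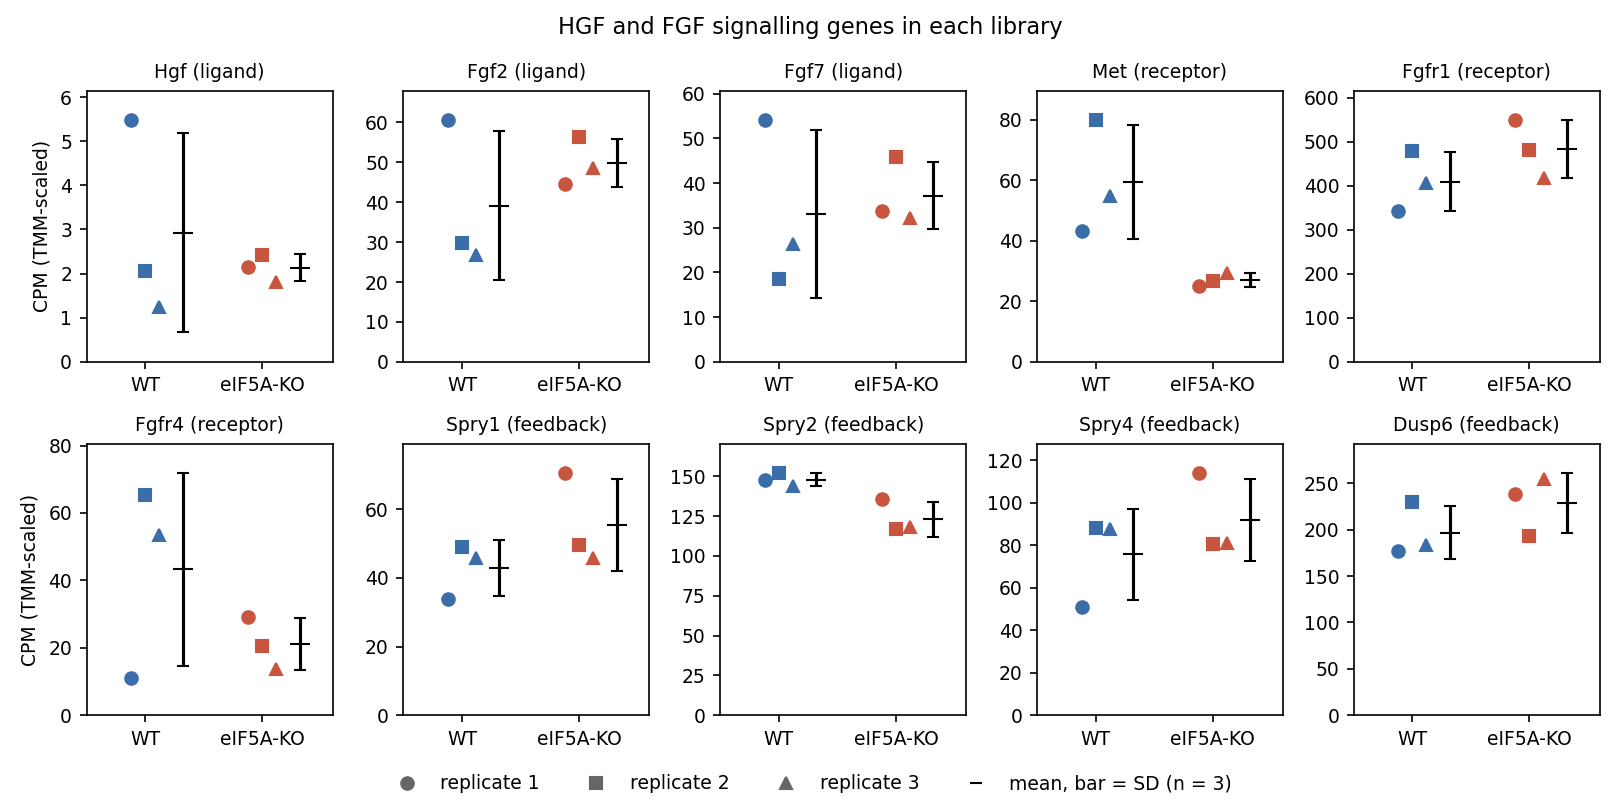
CPM of the 10 genes in each library (points, marker shape by replicate number), with the mean and SD of each genotype (n = 3), each panel on its own linear axis from 0. The 3 eIF5A-KO points of Met, between 24.9 and 29.5 CPM, and of Spry2, between 117 and 136 CPM, lie below all WT points, and WT replicate 1 is the highest or lowest point in 8 panels.

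Among the ligands, Hgf was barely expressed. Its gene lies at chr5:16553495-16620152 on the + strand of mm10. It had 85, 39 and 21 reads in WT replicates 1 to 3 and 35, 41 and 32 in the libraries labelled eIF5A-KO. These were 5.49, 2.07 and 1.24 CPM in WT and 2.14, 2.43 and 1.81 CPM in eIF5A-KO. The eIF5A-KO values lay within the WT range, and the 4.43-fold distance between the highest and the lowest library was a distance between WT replicates 1 and 3. The log2 fold change was -0.45 ± 0.50 (SE, edgeR adjusted p = 0.936). Without WT replicate 1 it was 0.36 (adjusted p = 0.793), so that its direction rested on that library.

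Fgf2, the FGF that is best known for driving the proliferation of cultured myoblasts, lies at chr3:37348346-37410108 (+). Its level was 60.7, 29.9 and 26.9 CPM in WT and 44.5, 56.4 and 48.6 CPM in eIF5A-KO. WT replicates 2 and 3 were the lowest of the 6 libraries and WT replicate 1 was the highest, so the groups overlapped. On the log2 scale Fgf2 was 0.35 ± 0.30 higher in eIF5A-KO (SE, adjusted p = 0.913, edgeR), a difference within the spread of the WT libraries. Without WT replicate 1 the 3 eIF5A-KO libraries lay above both WT libraries, with a log2 fold change of 0.82 (unadjusted p = 0.00091, adjusted p = 0.1, edgeR). It was 0.19 without WT replicate 2 and 0.14 without WT replicate 3 (adjusted p = 0.863 and 0.989, edgeR). The antisense genes Nudt6 and Fgf2os overlap Fgf2 and had 25 to 44 and 8 to 50 reads per library, against 455 to 953 for Fgf2. No source states that the counting used strand, so that reads of Fgf2 and of its antisense partners cannot be told apart.

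Fgf7, also called keratinocyte growth factor, is made mainly by mesenchymal cells for neighbouring epithelia and lies at chr2:126034658-126091185 (+). It had 54.2, 18.6 and 26.4 CPM in WT and 33.8, 45.8 and 32.1 CPM in eIF5A-KO. As for Fgf2, WT replicate 1 was the highest library and WT replicates 2 and 3 were the lowest. With all libraries, Fgf7 had a log2 fold change of 0.17 ± 0.35 (SE) and an adjusted p of 0.971 (edgeR). It was 0.73 without WT replicate 1 (unadjusted p = 0.00861, adjusted p = 0.291, edgeR) and -0.11 without WT replicate 2 (adjusted p = 0.925), and so changed direction with a single library. The fibroblast marker sum was also highest in WT replicate 1, at 1084 FPKM, and lowest in WT replicate 2, at 775 FPKM. Its members differed in direction: Dcn and Lum were highest in WT replicate 1, while Col1a1 and Col3a1 were lowest there, and Col3a1 was highest in WT replicate 2. The part of these cells in the levels of Fgf7 was not tested.

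Across libraries Fgf2 and Fgf7 were more alike than either was to Hgf. With each profile of log2 CPM centred on its own mean, Fgf2 and Fgf7 differed by a root-mean-square of 0.23 over the 6 samples, and Hgf differed from the most alike of the 10 genes, Fgf2, by 0.44. Of the 92 other pathway genes compared, Fgf18 was most like Fgf2, at 0.14, Mapk13 was most like Fgf7, at 0.23, and Fgf18 was most like Hgf, at 0.45. All 6 points share their libraries, and the likeness describes these 6 samples.

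Among the receptors, Met was lower in every library labelled eIF5A-KO. The gene, which encodes the receptor of HGF, lies at chr6:17463800-17573980 (+), and no other annotated gene overlaps it. Its level was 43.2, 80.0 and 54.8 CPM in WT and 24.9, 26.8 and 29.5 CPM in eIF5A-KO. The lowest WT library was thus above the highest eIF5A-KO library, and the eIF5A-KO libraries were close to each other, with an SD of 2.33 CPM against 18.8 CPM in WT. The mean was 59.3 CPM in WT and 27.1 CPM in eIF5A-KO, a 2.19-fold lower level. The log2 fold change was -1.13 ± 0.24 (SE), with a 95% confidence interval of -1.66 to -0.60. The unadjusted p was 0.00088, which placed Met at rank 39 of the tested genes, and the adjusted p was 0.331 (edgeR), above the threshold of 0.05.

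The call of Met depended on the setting, while its direction did not. Over 14 alternative settings its log2 fold change ranged from -1.31 to -0.85, and the unadjusted p was under 0.05 in 14 of 14. The groups also did not overlap with DESeq2 size factors or library size alone, the settings that rescale the libraries. The adjusted p ranged from 0.000269 to 0.99 and was under 0.05 in 3 of them. These were DESeq2 (adjusted p = 0.00588), edgeR without a filter on low counts (0.000269) and edgeR without WT replicate 1 (0.0209). Leaving out WT replicate 2, the library with the highest level of Met, gave the smallest difference, -0.85 (adjusted p = 0.372, edgeR).

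Of the myogenic markers, Pax7, which marks muscle stem cells, had 12.9, 51.7 and 25.2 CPM in WT and 13.0, 8.29 and 10.6 CPM in eIF5A-KO (log2 fold change -1.50, unadjusted p = 0.0069, adjusted p = 0.484, edgeR). Its groups overlapped through WT replicate 1. In all, 6 of the 7 myogenic markers had a negative log2 fold change, with a list median of -0.31. In WT the order of the libraries by Met was that of the summed myogenic markers, which were 218, 496 and 371 FPKM in replicates 1 to 3. In eIF5A-KO the order was the reverse, with sums of 362, 266 and 192 FPKM in replicates 1 to 3. The part of the cell makeup, or of the higher mural and Schwann marker sums of the eIF5A-KO libraries, in the difference of Met was not tested.

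Fgfr4, an FGF receptor that is expressed in activated myogenic cells and in regenerating muscle, lies at chr13:55152640-55168759 (+) and is overlapped by no annotated gene. It had 11.0, 65.3 and 53.6 CPM in WT and 29.1, 20.5 and 13.7 CPM in eIF5A-KO. WT replicates 2 and 3 were the highest of the 6 libraries, and WT replicate 1 was the lowest, 5.95-fold under replicate 2. The log2 fold change was -1.04 ± 0.54 (SE), with a 95% confidence interval of -2.25 to 0.17, and its adjusted p was 0.809 (edgeR). Without WT replicate 1 the groups did not overlap, and the log2 fold change was -1.49 (adjusted p = 0.0475, edgeR). Without WT replicate 2, the library with the highest level of Fgfr4, it was -0.62 (adjusted p = 0.729, edgeR). Without a filter on low counts the adjusted p was 0.002 (edgeR), with an SE of 0.23 in place of 0.54. This fit and that without WT replicate 1 were the only settings of 14 with an adjusted p under 0.05. The order of the libraries by Fgfr4, from WT replicate 2 and WT replicate 3 through eIF5A-KO replicates 1 and 2, was that of the summed myogenic markers, and both were low in eIF5A-KO replicate 3 and in WT replicate 1, which changed places in the order. The part of the myogenic share of the cultures in Fgfr4 was not tested.

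Fgfr1, the most abundant of these receptors, lies at chr8:25513654-25575718 (+). Its level was 343, 479 and 406 CPM in WT and 550, 482 and 417 CPM in eIF5A-KO. The highest library was eIF5A-KO replicate 1 and the lowest WT replicate 1, and the groups overlapped. Fgfr1 had a log2 fold change of 0.24 ± 0.20 (SE) and an adjusted p of 0.910 (edgeR), with a 95% confidence interval of -0.20 to 0.68. Without WT replicate 1 the log2 fold change was 0.14 (adjusted p = 0.846, edgeR). An antisense gene within Fgfr1, Gm16159, had 1 to 8 reads per library.

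**Figure D3:**
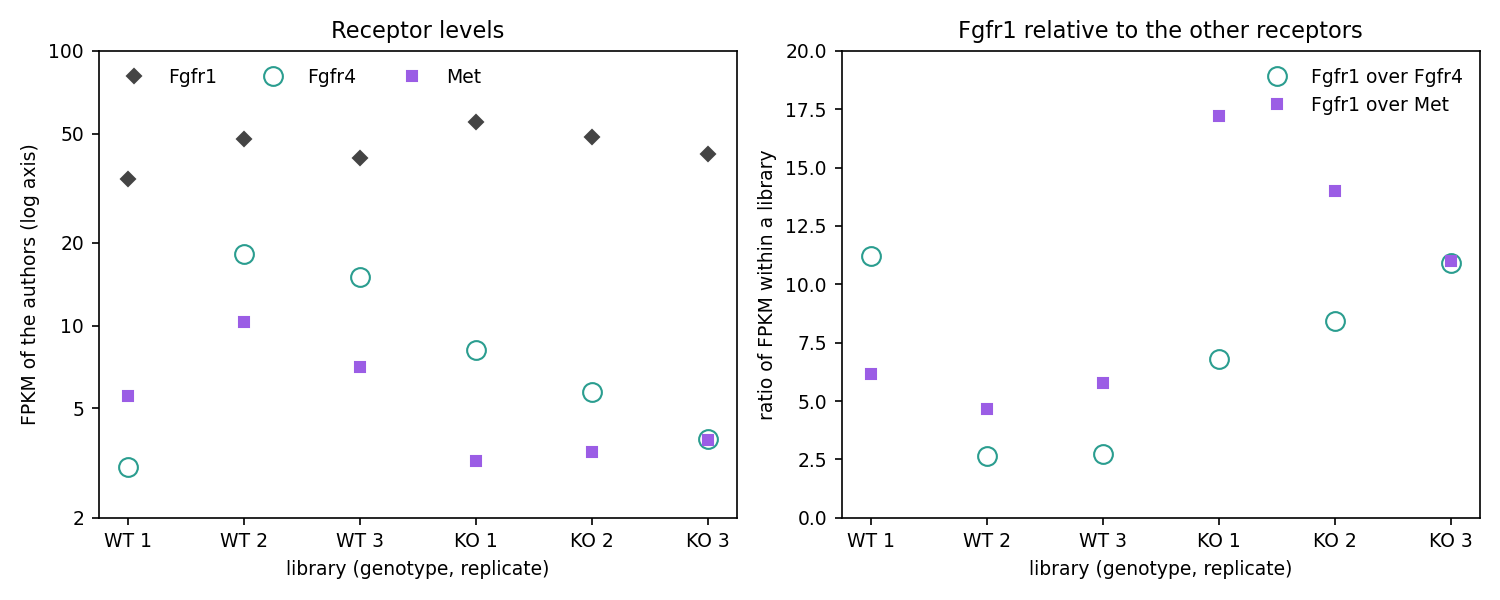
The authors' FPKM of Fgfr1, Fgfr4 and Met in each library on a log axis (left), and the ratio of Fgfr1 to the other receptors within each library on a linear axis from 0 (right). Fgfr1 over Met lies at 4.65 to 6.18 in WT and 11.0 to 17.2 in eIF5A-KO, while Fgfr1 over Fgfr4 in WT replicate 1 lies above all other libraries.

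Per gene length, Fgfr1 exceeded the other receptors in every library. In FPKM, Fgfr1 was 6.18, 4.65 and 5.76 times the level of Met in WT and 17.2, 14.0 and 11.0 times in eIF5A-KO, without overlap. Fgfr1 was 11.2, 2.63 and 2.72 times the level of Fgfr4 in WT and 6.79, 8.43 and 10.9 times in eIF5A-KO. The ratio to Fgfr4 in WT replicate 1 thus lay above all eIF5A-KO libraries, and those of WT replicates 2 and 3 below them. These ratios are given as values, without a test.

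Of the other pathway genes, Etv5, an ETS factor induced by ERK, had the profile most like that of Met (root-mean-square difference of log2 CPM 0.37, 6 samples), followed by the coreceptor Sdc3 (0.43). For Fgfr4 it was Fgf11, at 0.49. Met and Fgfr4 differed from each other by 0.74, with WT replicate 1 lowest in Fgfr4 but above the eIF5A-KO libraries in Met.

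Among the feedback inhibitors, Spry2 was slightly lower in every library labelled eIF5A-KO. Spry2 encodes a Sprouty protein that restrains RAS and ERK signalling from receptor tyrosine kinases, and lies at chr14:105891947-105896819 (-), with no overlapping gene. Its level was 148, 152 and 144 CPM in WT and 136, 117 and 118 CPM in eIF5A-KO. It was the steadiest of the 10 genes, with 1.31-fold between the highest and the lowest library. The groups did not overlap, also with DESeq2 size factors or library size alone, and the log2 fold change ranged from -0.33 to -0.21 over 14 alternatives. In the fit to all libraries it was -0.26 ± 0.16 (SE, unadjusted p = 0.126, adjusted p = 0.847, edgeR), so that the difference did not pass the test.

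Spry1 and Spry4 had the same outlying libraries as each other and not those of Spry2. Spry1, the Sprouty gene known for the return of muscle stem cells to quiescence, lies at chr3:37639947-37644598 (+). It had 33.7, 49.1 and 45.8 CPM in WT and 70.6, 49.5 and 45.9 CPM in eIF5A-KO. The lowest library was WT replicate 1, the highest eIF5A-KO replicate 1, and the other 4 lay between 45.8 and 49.5 CPM. Its log2 fold change of 0.37 ± 0.23 (SE, adjusted p = 0.858, edgeR) fell to 0.16 without eIF5A-KO replicate 1 and 0.23 without WT replicate 1.

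Spry4 lies on the - strand of chromosome 18 at 38586268 to 38601268. Its level was 51.1, 88.2 and 87.8 CPM in WT and 114, 80.3 and 80.9 CPM in eIF5A-KO. As for Spry1, WT replicate 1 was the lowest and eIF5A-KO replicate 1 the highest library. The remaining WT libraries, at 88.2 and 87.8 CPM, were above the remaining eIF5A-KO libraries. The log2 fold change was 0.28 ± 0.25 (SE, adjusted p = 0.915, edgeR), 0.07 without WT replicate 1 and 0.10 without eIF5A-KO replicate 1. The centred profiles of Spry1 and Spry4 differed by 0.11 (root-mean-square of log2 CPM), and Ier2, an immediate early gene, was the pathway gene most like each of them, at 0.08 and 0.09.

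Dusp6, the ERK phosphatase, lies at chr10:99263231-99267489 (+) with no overlapping gene. It had 177, 230 and 184 CPM in WT and 239, 193 and 255 CPM in eIF5A-KO. WT replicate 1 was the lowest and eIF5A-KO replicate 3 the highest library, and the groups overlapped. This gave a log2 fold change of 0.22 ± 0.19 (SE) and an adjusted p of 0.913 (edgeR), with a 95% confidence interval of -0.20 to 0.64. Without WT replicate 1 the log2 fold change was 0.15 (adjusted p = 0.82, edgeR).

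Without WT replicate 1, 2 of the 10 genes, Met and Fgfr4, passed an adjusted p of 0.05 in edgeR, against 0.372% of the 15056 genes tested then. Both were lower in the libraries labelled eIF5A-KO, as were 0.319% of the genes. At an unadjusted p under 0.05 it was 4 of the 10, against 10.2%. Fgf2 and Fgf7 were higher, against 4.72%, and Met and Fgfr4 lower, against 5.44%. The labels give no reason to leave this library out, and the values with all libraries remain the main ones.

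**Figure D4:**
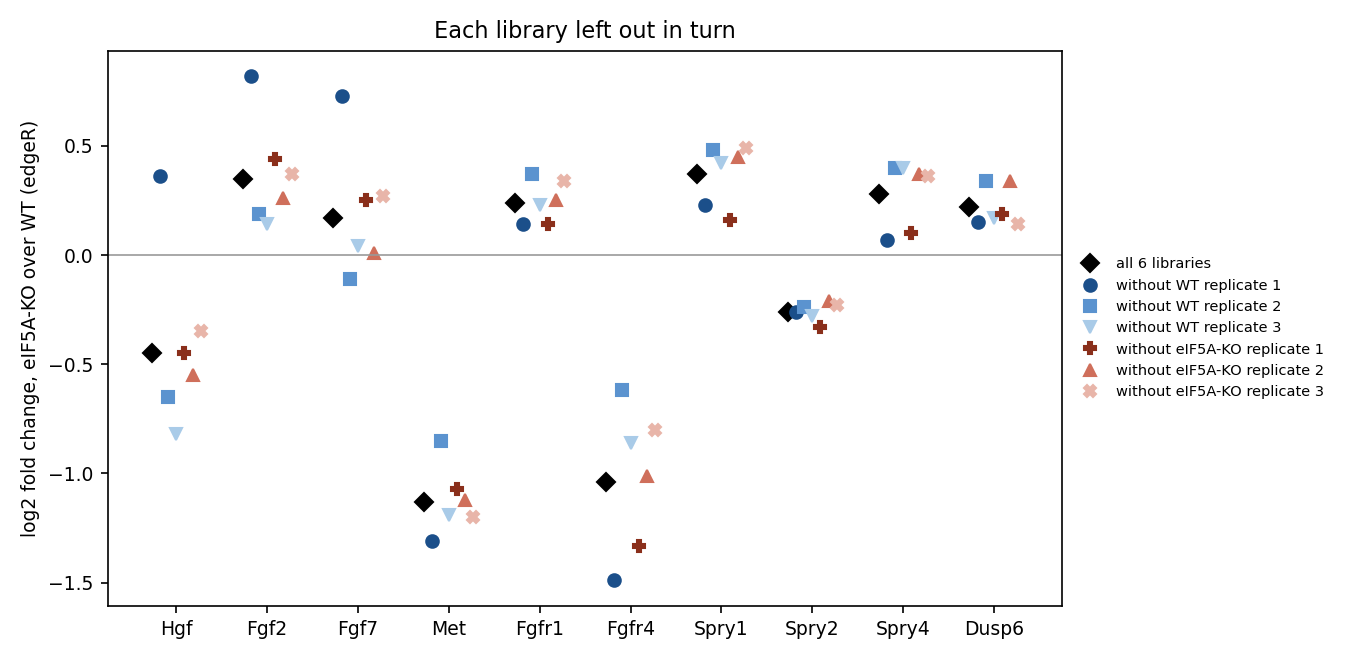
Log2 fold change of each gene from edgeR with all 6 libraries (diamonds) and with each library left out in turn (other markers). Hgf goes from -0.45 to 0.36 without WT replicate 1 and Fgf7 from 0.17 to -0.11 without WT replicate 2, while Met stays between -1.31 and -0.85.

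By level per gene length, the feedback inhibitors and Fgfr1 came first. In WT the order by mean FPKM was Spry2 (70.1 ± 1.96, SD, n = 3), Dusp6 (62.2 ± 9.11), Fgfr1 (41.0 ± 6.86), Spry4 (16.3 ± 4.65), Spry1 (14.6 ± 2.80), Fgfr4 (12.1 ± 8.0), Fgf7 (10.1 ± 5.65), Met (7.64 ± 2.43), Fgf2 (5.70 ± 2.70) and Hgf (0.403 ± 0.308, and a mean of 0.228 without WT replicate 1). Spry2 and Dusp6 overlapped in their ranges, as did all neighbours from Spry4 to Fgf2. Dusp6 was separate from Fgfr1, Fgfr1 from Spry4, and Fgf2 from Hgf. Hgf thus stood far below the other ligands in each library.

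In the libraries labelled eIF5A-KO the upper ranks held the same genes, and Fgfr4 and Met moved down. The order was Dusp6 (72.8 ± 10.3 FPKM, SD, n = 3), Spry2 (58.8 ± 5.02), Fgfr1 (48.6 ± 6.59), Spry4 (19.9 ± 4.15), Spry1 (18.9 ± 4.52), Fgf7 (11.4 ± 2.28), Fgf2 (7.30 ± 0.897), Fgfr4 (5.91 ± 2.14), Met (3.50 ± 0.310) and Hgf (0.294 ± 0.0423). Here Dusp6 and Spry2, Spry4 and Spry1, and Fgf2 and Fgfr4 overlapped in their ranges, and all other neighbours were separate. Met was below Fgf2 in every eIF5A-KO library, at 3.21 to 3.83 against 6.50 to 8.27 FPKM. WT replicate 1 had the same order, with Met at 5.54 and Fgf2 at 8.81 FPKM, and Fgfr4 was below both there, at 3.05 FPKM. The higher ranks of Met and Fgfr4 in WT thus rested on WT replicates 2 and 3.

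The other genes of the pathway were taken from 8 lists with 111 genes in all, of which 92 could be tested. In edgeR 5 of the 92 were called at an unadjusted p under 0.05, a share of 5.43% against the 6.76% of all tested genes, and 0 at an adjusted one. The groups did not overlap for 11 of them, a share of 12.0% against 12.5%. Of these 11, 9 were higher and 2 lower in eIF5A-KO, where 5.68% and 6.83% of all tested genes were higher and lower without overlap. The median log2 fold change was 0.08, with 56 genes positive and 36 negative. Of all tested genes, 48.3% had a positive log2 fold change, with a median of -0.011.

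Of 20 other FGF ligands, only 7 were tested, and Fgf3 and Fgf20 had no read in any library. Fgf18 had the highest level, 6.56 FPKM over all libraries (log2 fold change 0.32, adjusted p = 0.936, edgeR). Fgf13, an intracellular FGF family member that does not signal through the receptors, had 0.190, 0.888 and 0.481 FPKM in WT and 0.151, 0.176 and 0.126 FPKM in eIF5A-KO, without overlap. Its log2 fold change was -1.79 (unadjusted p = 0.00952, adjusted p = 0.501, edgeR). Fgf10, a ligand of the FGFR2 receptor made by mesenchymal cells, had 0.760, 0.285 and 0.497 FPKM in WT and 1.28, 0.883 and 0.834 FPKM in eIF5A-KO (log2 fold change 0.96, unadjusted p = 0.0337, adjusted p = 0.675, edgeR). The groups of Fgf10 did not overlap either, and both genes were expressed at a low level. Without WT replicate 2 the log2 fold change of Fgf13 was -1.16 (unadjusted p = 0.0553, edgeR) and that of Fgf10 0.66 (unadjusted p = 0.09, edgeR), and the p of Fgf10 was also over 0.05 without WT replicate 3 (0.0787) or eIF5A-KO replicate 1 (0.124).

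Of 15 other receptors and coreceptors, 13 were tested and none had an unadjusted p under 0.05. Fgfr2 and Fgfr3 were at 0.134 and 0.437 FPKM over all libraries, far below Fgfr1 and Fgfr4. The receptor gene Fgfrl1, whose product lacks a kinase domain, differed by 0.39 on the log2 scale, higher in eIF5A-KO (adjusted p = 0.815, edgeR), and Sdc3, a heparan sulphate coreceptor of muscle stem cells, by -0.49 (adjusted p = 0.881). The most abundant was the coreceptor Sdc4, at 185 FPKM (log2 fold change 0.11). Of 12 genes for the processing and release of HGF, 8 were tested and none had an unadjusted p under 0.05. Plat, tissue plasminogen activator, had a log2 fold change of 0.40 and Spint2, an inhibitor of HGF activators, one of 0.53, with adjusted p of 0.78 and 0.815 (edgeR).

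Within the cell, none of the 13 adaptors, 14 genes of the RAS-ERK cascade and 8 of the p38 branch had an unadjusted p under 0.05 in edgeR. The adaptors had a median log2 fold change of -0.01 and the RAS-ERK cascade one of -0.06. Ptpn11, a phosphatase needed for RAS activation, did not overlap, at 29.5, 27.5 and 24.1 FPKM in WT and 22.1, 22.3 and 24.0 FPKM in eIF5A-KO (log2 fold change -0.25, adjusted p = 0.867). Crkl and Crk had log2 fold changes of -0.24 and -0.21. Map2k2, which encodes the ERK kinase MEK2, had one of 0.36, and Mapk3, which encodes ERK1 and was the most abundant of its list at 111 FPKM, one of 0.28. In the p38 branch, which is known for the induction of Myod1 and differentiation in myoblasts, the log2 fold change was positive in 8 of 8 genes but small, from 0.02 for Map2k6 to 0.33 for Mapk12, with Mapkapk2 at 0.30 and Map2k3 at 0.04.

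**Figure D5:**
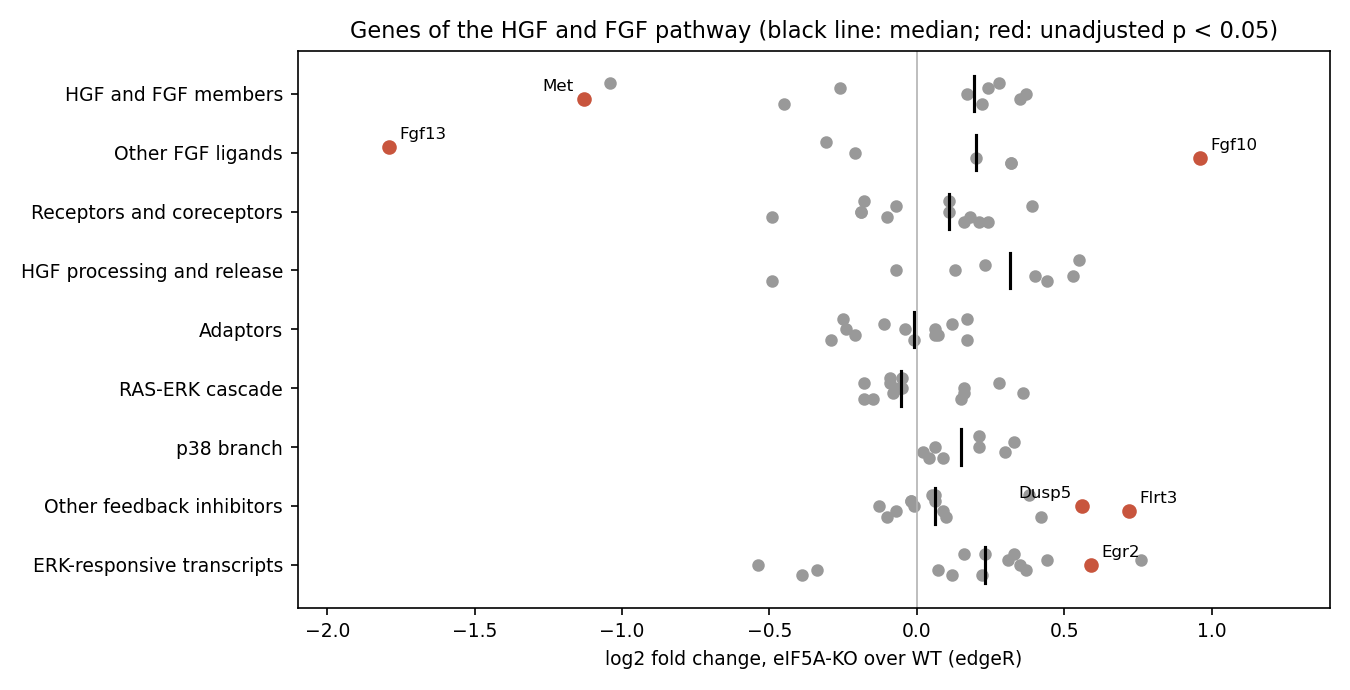
Log2 fold change (edgeR, eIF5A-KO over WT) of each tested gene of the HGF and FGF pathway by list, with the median of each list as a black line and genes with an unadjusted p under 0.05 in red and named. Most points lie near 0, and the list medians lie between -0.06 and 0.31.

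Of the 15 genes listed as other feedback inhibitors, 2 had an unadjusted p under 0.05, both higher in the libraries labelled eIF5A-KO, where 2.74% of all tested genes were higher by this rule and 6.76% differed in either direction. Of the pair, Flrt3 is not known as an inhibitor. Dusp5, a nuclear ERK phosphatase, had 39.4, 53.8 and 56.3 FPKM in WT and 92.4, 59.8 and 69.8 FPKM in eIF5A-KO (log2 fold change 0.56, unadjusted p = 0.0288, adjusted p = 0.644, edgeR). Flrt3, a membrane protein that binds FGF receptors and is known to promote their signalling, was low, at 0.340, 0.593 and 0.434 FPKM in WT and 0.785, 0.641 and 0.847 FPKM in eIF5A-KO (log2 fold change 0.72, unadjusted p = 0.0445, adjusted p = 0.718). The groups overlapped in neither gene. The p of Dusp5 was over 0.05 without WT replicate 1 (0.0563) or eIF5A-KO replicate 1 (0.134), and that of Flrt3 in every such fit but that without WT replicate 2 (0.0193). With library size alone in edgeR the p was 0.0579 for Dusp5 and 0.0712 for Flrt3 and the groups overlapped, and with the replicate block that of Flrt3 was 0.0679. The list's median was 0.06, and its most abundant gene, Errfi1, an inhibitor of the EGF receptor, had a log2 fold change of -0.10.

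Of 15 transcripts that respond to ERK, 12 had a positive log2 fold change and 3 a negative one, with a median of 0.23, beside the 48.3% positive and the median of -0.011 over all tested genes. The summed FPKM of this list was 908, 1352 and 1156 in WT and 1485, 1201 and 1303 in eIF5A-KO, lowest in WT replicate 1. How far the tally of directions rests on that library was not tested. Of the 15, 1 had an unadjusted p under 0.05, a share of 6.67% against the 6.76% of all tested genes. This was Egr2, an immediate early transcription factor, with 14.7, 16.2 and 12.2 FPKM in WT and 27.2, 21.4 and 16.8 FPKM in eIF5A-KO, without overlap (log2 fold change 0.59, unadjusted p = 0.0219, adjusted p = 0.609, edgeR). The most abundant was Ier2, at 219 FPKM (log2 fold change 0.22, adjusted p = 0.932). Etv5, most like Met among the listed pathway genes only, had 8.71, 16.2 and 10.1 FPKM in WT and 9.58, 7.85 and 6.78 FPKM in eIF5A-KO. Its groups overlapped (log2 fold change -0.54, unadjusted p = 0.0624, adjusted p = 0.785, edgeR). With 1 library left out in turn, the p of Egr2 ranged from 0.00746 to 0.0998 (edgeR, unadjusted) and was over 0.05 without WT replicate 3 (0.0919) or eIF5A-KO replicate 1 (0.0998). With library size alone its groups overlapped.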

How the data were processed

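Gene expression was measured by bulk RNA-seq in 6 libraries of primary myoblasts. RNA was extracted with TRIzol, libraries were made with a kit of the NEBNext Ultra series, and reads were aligned with HISAT to the mouse build mm10. The authors deposited raw counts of reads per gene. The HISAT version and the rules of counting are not given in the sources used here. A further deposited table holds the authors' FPKM, whose denominator per library was proportional to the median-of-ratios size factor.

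The members and gene lists were chosen with earlier results of these data known. Counts were tested with edgeR 4.0.16 (R 4.3.3), eIF5A-KO against WT without a covariate, after filterByExpr (minimum count 10) and with TMM factors. P-values of the quasi-likelihood F test were adjusted by Benjamini-Hochberg over the whole table of tested genes. The common biological coefficient of variation was 0.239, and depth was 16281216 to 17734551 counts per library. The script was tested on simulated data. Levels were compared between genes in FPKM and within a gene in CPM. The 10 genes were named in full, and of each pathway list the 2 tested genes with the smallest p and the most abundant one. 1 gene that this rule names is not reported here. Other pathway genes named were chosen after their values were seen. The alternatives used the size factors of DESeq2 or library size in edgeR, left the filter out or required 10 counts in each library, replaced edgeR by DESeq2 1.42.0 or by limma 3.58.1 on log2(FPKM + 1) or log2(FPKM + 0.1), added a replicate block, or left out each library in turn. Gene coordinates come from the deposited tables, and promoter sequences from RefSeq (GRCm38.p6).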

Additional observations from a re-analysis of the deposited data

How the results depend on the processing

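Of 140 refitted log2 fold changes (10 genes, 14 alternatives), 133 kept their direction and their side of the adjusted threshold. The exceptions were Hgf, at 0.36 without WT replicate 1 (-0.82 to 0.36 with each library left out), Fgf7, at -0.11 without WT replicate 2 (-0.11 to 0.73), Fgfr4, which passed with no filter and without WT replicate 1, and Met. Met passed with no filter (-1.12), with DESeq2 (-1.13) and without WT replicate 1, and ranged from -1.31 to -0.85 when each library was left out. The cause of these shifts was not tested.

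With no filter, 2 of the 10 genes had an adjusted p under 0.05 (0.924% of the 26956 genes then tested), 2 an unadjusted p under 0.05 (6.32%) and 2 passed the fold criterion (2.57%). In that fit the SE of Fgfr4 was 0.23 against 0.54 with the filter. Fgfr4 thus passed there with little account of its spread among the WT libraries. DESeq2 gave 1 at an adjusted p under 0.05 (0.6%), and limma on log2(FPKM + 1), a scale that understates the fold of low genes, gave 0 past the fold criterion. With each library left out, these counts ranged from 0 to 2 (adjusted), 1 to 4 (unadjusted) and 0 to 2 (fold criterion), and 2 to 5 genes did not overlap. Of all tested genes, 3.88% to 10.2% then had an unadjusted p under 0.05, 1.95% to 3.19% passed the fold criterion and 16.5% to 27.4% did not overlap, and 0% to 0.372% (the latter without WT replicate 1) had an adjusted p under 0.05. An RPKM computed from the counts in place of the authors' FPKM moved each mean level by less than 1 SD.

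Of the other pathway genes, 3 had an unadjusted p under 0.05 and 6 did not overlap with library size alone (6.58% and 12.2% of all tested genes). With no filter 11 had an unadjusted and 1 an adjusted p under 0.05 (6.32% and 0.924% of all). With each library left out, 1 to 12 had an unadjusted p under 0.05 and 15 to 31 did not overlap, beside the shares of all genes given above for these fits.

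Over all tested genes, the count with an adjusted p under 0.05 was 3. It was 0 with DESeq2 size factors, library size alone, at least 10 counts in every library and limma with either pseudocount, where 907 to 992 had an unadjusted p under 0.05. It was 249 with no filter, 88 with DESeq2 and 24 with the replicate block. No filter gave 1703 at an unadjusted p under 0.05 and 692 past the fold criterion, which was 163 with at least 10 counts in every library and 59 with limma on log2(FPKM + 1). With each library left out, the ranges were 0 to 56 (adjusted), 585 to 1530 (unadjusted), 294 to 481 (fold criterion) and 2491 to 4123 (no overlap).

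The labels do not say whether same-numbered libraries were paired. Their deviations from the group means correlated at 0.103, -0.221 and 0.113 across genes, and WT replicate 1 correlated best with eIF5A-KO replicate 2. Such correlations cannot decide whether the libraries were paired. With the replicate block Met was at -1.09 (adjusted p = 0.115, edgeR), and 0 of the 10 genes passed.

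Precision is limited by the spread between the 3 libraries of a genotype, with a biological coefficient of variation of 0.239 over all genes. At 21 to 85 reads per library, counting error also limits Hgf.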
